A study of Mus musculus with 12 samples.

Results

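The genes described are 10 markers of the melanocyte lineage and of its neural crest origin, *Mitf*, *Sox10*, *Sox9*, *Tyr*, *Tyrp1*, *Dct*, *Mlana*, *Ednrb*, *Kit*, and *Ngfr*, taken by name from a table of 30705 genes. They were compared to place murine melanoma cells between the pigmented and the dedifferentiated state. RNA-seq had been performed on cultured cells in 4 groups of 3 samples, namely a scramble control and cells lacking *ptgs1*, *ptgs2*, or *ptges* (written *ptgs1*-KO and so on). All 4 groups came from 1 melanoma line of a C57BL/6 mouse, whose alleles were Braf+/LSL-V600E (oncogenic Braf switched on by Cre), Tyr::CreERT2+/o (tamoxifen-inducible Cre driven by the tyrosinase promoter), and p16INK4a-/- (loss of a cell-cycle inhibitor). The genes encoding COX-1 (*ptgs1*), COX-2 (*ptgs2*), and mPGES-1 (*ptges*) had each been knocked out with CRISPR/Cas9, with puromycin selection and subcloning by limiting dilution. A legend of the study describes the 3 samples of a line as different subclones, which the labels do not state, and the p-values measure only the spread between these samples. In bulk RNA, fewer cells expressing a gene and less RNA per cell cannot be told apart.

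Melanocytes arise from the neural crest, a migratory embryonic cell population, through precursors called melanoblasts. *Sox10* and *Pax3* are transcription factors that switch on *Mitf*, the master regulator of the lineage, and *Mitf* in turn activates the pigment enzymes *Tyr*, *Tyrp1*, and *Dct* and the melanosome proteins *Mlana* and *Pmel*. *Kit* and *Ednrb* are receptors that melanoblasts need in order to survive and migrate. Melanoma cells can lose this program and take on an undifferentiated state, which in human melanoma is recognized by low MITF and SOX10 with high AXL, and at times by high SOX9 or NGFR.

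The pigment enzymes share a short element in front of their start sites, which is shown here because these genes are the classical targets of *Mitf*. RefSeq start-site windows (250 bases before to 50 bases after a start, build GRCm38.p6) were matched for 7 of the 10 members. The 250 bases before the starts of *Tyr* (chr7:87493513-87493762, minus strand), *Tyrp1* (chr4:80833963-80834212, plus strand), and *Dct* (chr14:118052247-118052496, minus strand) are given 5′ to 3′ on the strand of the gene. Capitals mark the longest run common to the 3 windows. The last sequence lies before the most downstream of 3 *Mitf* starts (chr6:97991533-97991782, plus strand), from which the melanocyte form of the gene is transcribed, and its capitals mark a cAMP response element.
Tyr: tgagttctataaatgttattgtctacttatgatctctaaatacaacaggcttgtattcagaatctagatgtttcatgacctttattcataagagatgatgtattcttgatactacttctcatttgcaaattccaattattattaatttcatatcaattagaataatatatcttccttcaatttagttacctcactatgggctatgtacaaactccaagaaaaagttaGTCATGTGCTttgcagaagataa
Tyrp1: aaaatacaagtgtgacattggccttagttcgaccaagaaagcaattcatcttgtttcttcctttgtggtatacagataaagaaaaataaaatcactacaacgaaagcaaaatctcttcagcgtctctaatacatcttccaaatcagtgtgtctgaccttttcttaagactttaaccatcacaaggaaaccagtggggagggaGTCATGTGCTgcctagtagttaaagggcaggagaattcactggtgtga
Dct: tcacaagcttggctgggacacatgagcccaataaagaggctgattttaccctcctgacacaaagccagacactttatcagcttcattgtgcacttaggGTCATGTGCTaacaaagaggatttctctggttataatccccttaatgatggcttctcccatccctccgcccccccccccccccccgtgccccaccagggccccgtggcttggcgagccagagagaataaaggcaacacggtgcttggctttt
Mitf: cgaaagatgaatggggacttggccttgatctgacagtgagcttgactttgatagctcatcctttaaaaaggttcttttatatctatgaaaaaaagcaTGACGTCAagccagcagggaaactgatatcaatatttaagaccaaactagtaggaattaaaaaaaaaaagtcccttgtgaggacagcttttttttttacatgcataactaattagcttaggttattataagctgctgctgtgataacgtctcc

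The common run was GTCATGTGCT, 10 bases long, which contains the E-box CATGTG, a motif that Mitf protein is known to bind. It began 23 bases before the start of *Tyr*, 48 bases before that of *Tyrp1*, and 152 bases before that of *Dct*. Of 32851 start-site windows, 0.186% held this run on either strand, and 14.2% held CATGTG. The *Dct* window held a second CATGTG on the other strand, outside the capitals. None of the windows of *Mitf*, *Kit*, *Ednrb*, and *Ngfr* held CATGTG, and none of the 10 windows of the members held CACGTG, another E-box, which was present in 7.15% of all windows. The cAMP response element TGACGTCA began 153 bases before the *Mitf* start and was present in 1.79% of all windows. These matches describe the letters in the windows, and binding was not measured.

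Most of the lineage genes were near or at 0 in these cells. *Sox10*, *Tyrp1*, *Dct*, *Mlana*, and *Kit* were listed at 0 in all 12 samples, 5 of the 10 members, beside 39.3% of all genes in the table. *Mitf*, *Sox9*, and *Tyr* were above 0 in all 12 samples. *Ednrb* and *Ngfr* were above 0 in some of the samples. The values are RPKM (reads per kilobase of transcript per M mapped reads), and genes with a mean of at least 1 over the 12 samples were tested, which left *Mitf* and *Sox9*.

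**Figure D1:**
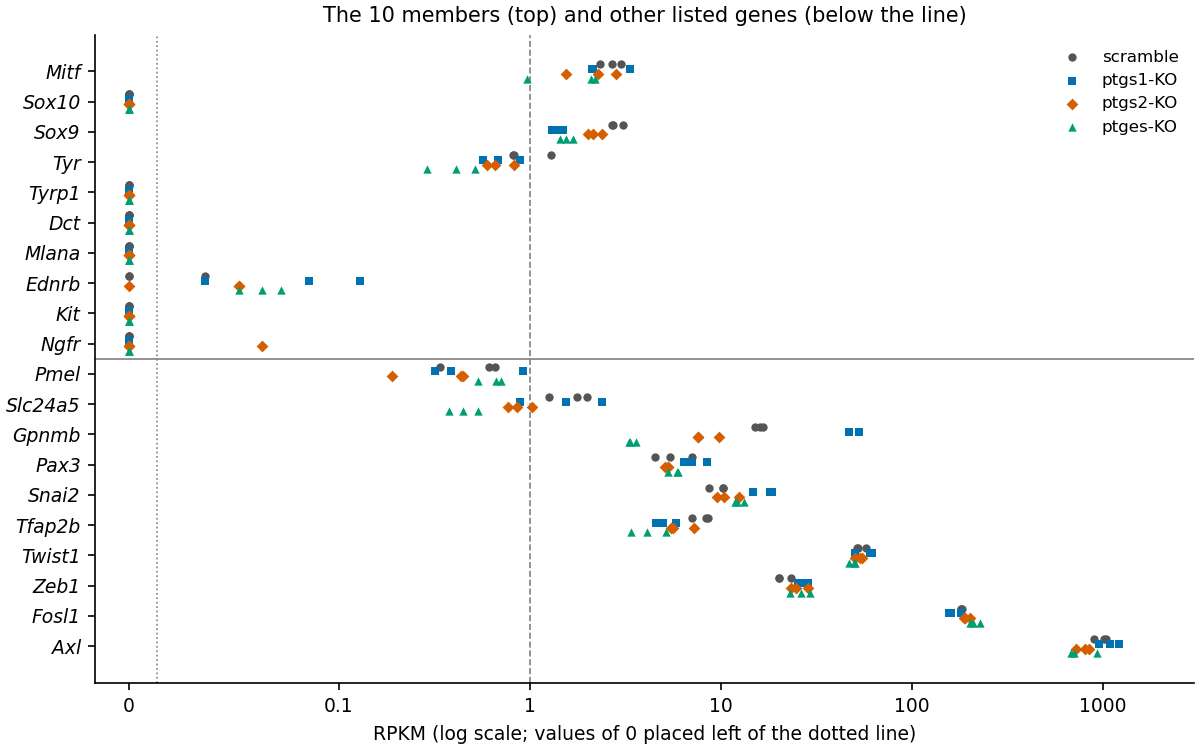
Level of each member (above the horizontal line) and of 10 other listed genes (below it) in RPKM on a log axis, 1 point per sample, with values of 0 drawn left of the dotted line and the minimum mean for testing at the dashed line. 5 members sit at 0 in all samples, *Mitf* and *Sox9* lie between 0.97 and 3.35, and *Axl* lies between 682 and 1223.

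Depth set the limit of detection. It was estimated from the steps between low values at 13.4 to 17.0 M reads per sample, and 3 reads on the longest coding transcript would be worth 0.0805 RPKM for *Sox10*, 0.0823 for *Tyrp1*, 0.102 for *Dct*, 0.247 for *Mlana*, and 0.0427 for *Kit* in the shallowest sample. At such levels counting error alone could leave a gene at 0 in a single sample. They are not a hard floor, since *Ednrb* and *Ngfr* had listed values under the worth of 3 reads. The 5 members at 0 were so in all 12 samples, and no limit was computed over the samples together. Of 80 genes picked by a ribosomal protein name, 76 were above 0 in all samples. Whether all cells use the others was not checked, so they do not show how often a 0 misses a transcript. A 0 in this table need not mean the absence of the transcript. In 1 library, *ptgs1*-KO replicate 3, a single gene took 8.24% of the summed values, against 2.84% to 4.28% for the highest gene of the other libraries. The targeted genes *Ptgs1*, *Ptgs2*, and *Ptges* were each called lower in the line named for them, with differences from scramble of -3.16, -3.24, and -1.05 on the log2 scale. In *ptgs1*-KO cells *Ptges* was also called lower (-0.50, limma adjusted p = 0.00110), and so was *Ptgs2* (-0.36, adjusted p = 0.0386), the latter in 8 of 20 alternatives.

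*Mitf* was low in all 4 lines. Its RPKM was 2.33, 2.70, and 3.01 in scramble cells and 2.13, 3.35, and 2.14 in *ptgs1*-KO cells. It was 2.85, 1.55, and 2.29 in *ptgs2*-KO cells and 0.97, 2.19, and 2.10 in *ptges*-KO cells. The 3 *ptges*-KO samples lay below the 3 scramble samples, by a narrow margin for 2 of them, while the ranges of the other lines overlapped with that of scramble cells. The group means were 2.68 ± 0.340 (SD, n = 3), 2.54 ± 0.701, 2.23 ± 0.652, and 1.75 ± 0.680 RPKM in scramble, *ptgs1*-, *ptgs2*-, and *ptges*-KO cells, in that order.

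No difference in *Mitf* passed the test. Differences were tested with limma on log2(RPKM + 1), a scale that understates changes of low genes, with all 12 samples in 1 model and Benjamini-Hochberg adjustment over the 11282 genes tested. The largest difference from scramble was that of *ptges*-KO cells, -0.45 (SE 0.21, 95% interval -0.90 to 0.00, adjusted p = 0.132). It was -0.20 in *ptgs2*-KO cells (95% interval -0.65 to 0.25, adjusted p = 0.564) and -0.07 in *ptgs1*-KO cells (95% interval -0.52 to 0.38, adjusted p = 0.880). Between the knockout lines the differences ranged from -0.38 to -0.13, with adjusted p from 0.190 to 0.687. Over the 4 groups the limma F test gave *Mitf* an adjusted p of 0.279, in a table where 38.6% of the genes tested were called. The intervals reach a change of about 0.9 on this scale, so equal levels are not shown. The row of *Mitf* in the table is described as transcript variant 1, and its isoforms, among them the melanocyte form, were not separated.

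**Figure D2:**
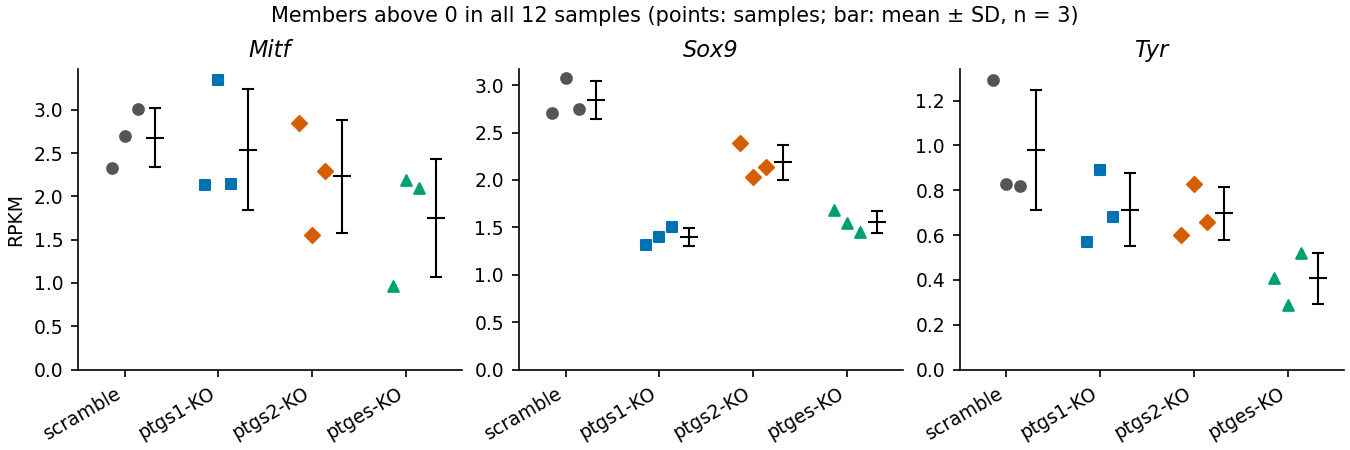
RPKM of *Mitf*, *Sox9*, and *Tyr* in each of the 12 samples (points, 3 per group), with the group mean and SD beside them, each panel on its own axis from 0. All 9 knockout samples of *Sox9* lie below the 3 scramble samples, and the 3 *ptges*-KO samples of *Tyr* lie below the other 9.

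*Sox9*, a transcription factor of the early neural crest that is also used in cartilage and in melanocyte maturation, was the tested member that differed between the lines. Its RPKM was 2.71, 3.08, and 2.75 in scramble cells and 1.31, 1.40, and 1.50 in *ptgs1*-KO cells. It was 2.39, 2.03, and 2.14 in *ptgs2*-KO cells and 1.68, 1.55, and 1.45 in *ptges*-KO cells. Every knockout sample was below every scramble sample, the *ptgs2*-KO samples lay in between, and the *ptgs1*-KO and *ptges*-KO ranges overlapped. The share of all genes whose ranges separate in this way is not given here, for *Sox9* or for the other genes described by their ranges.

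The mean of *Sox9* was 49.3% of that of scramble cells in *ptgs1*-KO cells, 54.8% in *ptges*-KO cells, and 76.8% in *ptgs2*-KO cells. On the log2 scale it fell by 0.68 in *ptgs1*-KO cells (SE 0.11, limma adjusted p = 0.00116) and by 0.59 in *ptges*-KO cells (SE 0.11, adjusted p = 0.00162). The difference of -0.27 in *ptgs2*-KO cells did not pass (95% interval -0.50 to -0.04, adjusted p = 0.120). Thus 1 of the 2 members tested was called lower in *ptgs1*-KO cells, where 4.61% of all genes tested were called lower, and 1 of 2 in *ptges*-KO cells, where 14.4% were. In *ptgs2*-KO cells 0 of 2 were called at an adjusted p under 0.05, *Sox9* had an unadjusted p of 0.0241, and 5.17% of all genes were called lower. None of the members tested was called higher against scramble, beside 4.65%, 5.97%, and 11.9% of all genes in *ptgs1*-, *ptgs2*-, and *ptges*-KO cells.

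Compared with each other, *ptgs2*-KO cells had more *Sox9* than *ptgs1*-KO cells, by 0.41 on the log2 scale (SE 0.11, limma adjusted p = 0.0141), where 23.6% of all genes were called in either direction. That call was lost without *ptgs2*-KO replicate 1 (adjusted p = 0.0569) and with only the 2 groups in the model (adjusted p = 0.0568). *Sox9* did not differ past the threshold between *ptges*-KO and *ptgs1*-KO cells (0.09, 95% interval -0.14 to 0.32, adjusted p = 0.554), where 30.2% of all genes were called. The difference of *ptges*-KO from *ptgs2*-KO cells was -0.32 (95% interval -0.55 to -0.09, adjusted p = 0.0606), where 16.6% of all genes were called. In the order of the means, scramble, *ptgs2*-KO, *ptges*-KO, and *ptgs1*-KO, no pair of neighbors passed the test. Over the 4 groups the F test gave *Sox9* an adjusted p of 8.85e-04.

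**Figure D3:**
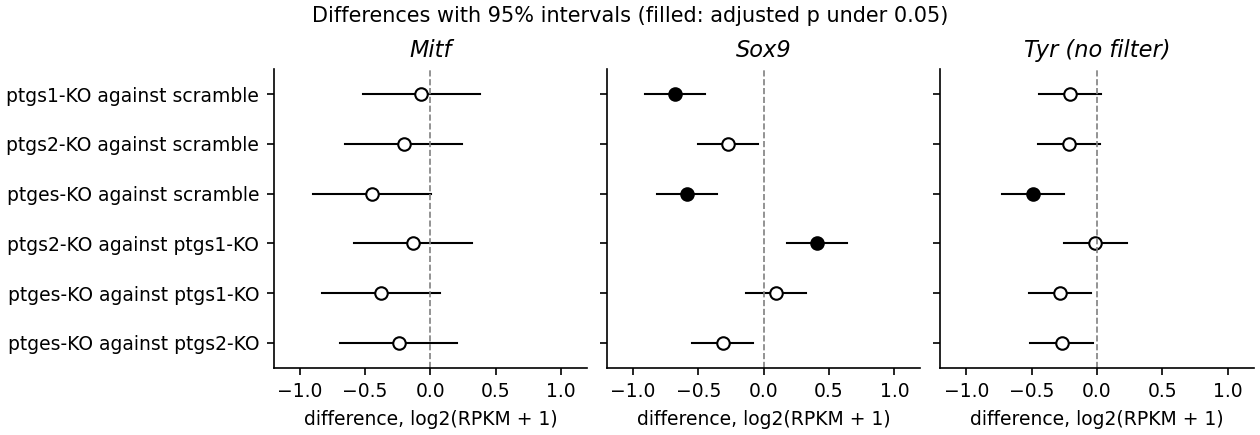
Difference of *Mitf*, *Sox9*, and *Tyr* on the log2(RPKM + 1) scale in each of 6 comparisons (first group minus second), with 95% intervals from limma, filled where the adjusted p was under 0.05. *Sox9* is filled in 3 comparisons, *Tyr*, taken from the fit without a filter, in 1, and *Mitf* in none.

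*Tyr* encodes tyrosinase, the rate-limiting enzyme of melanin synthesis, and its promoter drives the Cre of the mouse from which the line came. Its RPKM was 1.29, 0.83, and 0.82 in scramble cells, and 0.57, 0.89, and 0.68 in *ptgs1*-KO cells. It was 0.60, 0.83, and 0.66 in *ptgs2*-KO cells and 0.41, 0.29, and 0.52 in *ptges*-KO cells. The *ptges*-KO samples were the lowest of the 12, without overlap with any other line, and the ranges of the other lines overlapped.

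With a mean of 0.699 RPKM *Tyr* was under the minimum, so its test comes from the fit without a filter on 18623 genes. There *Tyr* was lower in *ptges*-KO cells than in scramble cells by 0.49 on the log2 scale (SE 0.11, limma adjusted p = 0.0118), with a mean of 41.5% of that of scramble cells, and 8.74% of the genes in that fit were called lower. The call was lost without *ptges*-KO replicate 2 (adjusted p = 0.0563) and with only the 2 groups in the model (adjusted p = 0.0585). The differences in *ptgs1*-KO cells (-0.20, 95% interval -0.44 to 0.03, adjusted p = 0.346) and *ptgs2*-KO cells (-0.22, 95% interval -0.45 to 0.02, adjusted p = 0.290) did not pass. Nor did *ptges*-KO cells differ from *ptgs1*-KO (adjusted p = 0.0967) or *ptgs2*-KO cells (adjusted p = 0.155) past the threshold, so a lower *Tyr* particular to *ptges*-KO cells was not shown. At the estimated depth *Tyr* rested on 4.92 to 20.5 reads per kilobase, against 15.7 to 47.8 for *Mitf* and 19.5 to 46.4 for *Sox9*.

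The receptor genes carried almost no signal. *Ednrb*, the endothelin receptor of melanoblasts, was 0.00, 0.02, and 0.00 RPKM in scramble cells and 0.13, 0.07, and 0.02 in *ptgs1*-KO cells. It was 0.03, 0.03, and 0.00 in *ptgs2*-KO cells and 0.04, 0.05, and 0.03 in *ptges*-KO cells. The worth of 3 reads was 0.0545 RPKM in the shallowest sample, a level that 2 of the 12 samples exceeded, both *ptgs1*-KO, and no difference of *Ednrb* passed without a filter (adjusted p from 0.139 to 0.807). *Ngfr*, the low-affinity neurotrophin receptor that marks neural crest stem cells, was above 0 only in *ptgs2*-KO replicate 1, at 0.04 RPKM. *Kit*, the receptor for stem cell factor, was listed at 0 throughout. The row of *Sox10* is described as a cDNA clone, which is also listed at 0 throughout.

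Several ligands of these receptors had higher levels than the receptors. The list of 16 ligands and partners of Kit, Ednrb, and Ngfr also held *Erbb3*, which is a receptor for neuregulins and not a ligand of these 3. Of the 16 genes 7 were tested, *Erbb3* among them. Against scramble, 0 rose and 1 fell in *ptgs1*-KO cells, 0 rose and 2 fell in *ptgs2*-KO cells, and 1 rose and 3 fell in *ptges*-KO cells. The 2 that fell in *ptgs2*-KO cells were *Kitl* and *Erbb3*. Over all genes tested, 4.65% rose and 4.61% fell in *ptgs1*-KO cells, 5.97% and 5.17% in *ptgs2*-KO cells, and 11.9% and 14.4% in *ptges*-KO cells. The median differences of the list were 0.00, -0.09, and -0.16 on the log2 scale, beside 0.01, 0.01, and -0.03 over all genes tested.

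*Kitl* encodes stem cell factor, the ligand of Kit. It was 19.8, 19.9, and 19.6 RPKM in scramble cells, 22.5, 26.4, and 21.3 in *ptgs1*-KO cells, 15.7, 14.9, and 13.7 in *ptgs2*-KO cells, and 9.33, 7.94, and 7.13 in *ptges*-KO cells. The 4 lines did not overlap. *Kitl* fell by 1.19 on the log2 scale in *ptges*-KO cells (SE 0.11, limma adjusted p = 4.78e-06) and by 0.40 in *ptgs2*-KO cells (adjusted p = 0.0273). The latter call was lost without any single scramble sample or without *ptgs2*-KO replicate 2 or 3 (adjusted p up to 0.0984). In *ptgs1*-KO cells the difference was 0.22 (adjusted p = 0.222). Compared directly, *ptges*-KO cells had less *Kitl* than *ptgs2*-KO cells, by 0.79 (adjusted p = 1.94e-04).

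Among the endothelins, *Edn3*, the ligand best known for supporting melanoblasts, was listed at 0 in all samples. *Edn1*, which also binds Ednrb, had means of 2.38 ± 0.140, 3.34 ± 0.624, 2.43 ± 0.554, and 3.88 ± 0.113 RPKM (SD, n = 3) in scramble, *ptgs1*-, *ptgs2*-, and *ptges*-KO cells. It rose by 0.53 on the log2 scale in *ptges*-KO cells (limma adjusted p = 0.0140). The *ptgs1*-KO samples (2.63 to 3.79 RPKM) also lay above the scramble samples (2.24 to 2.52), though *Edn1* was not called in that line. It was not called higher in *ptges*-KO than in *ptgs1*-KO cells either, so a rise particular to *ptges*-KO cells was not shown. *Erbb3*, a neuregulin receptor of neural crest cells, fell by 0.64 in *ptgs2*-KO cells (adjusted p = 0.00751), from 1.85 ± 0.136 to 0.833 ± 0.182 RPKM.

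**Figure D4:**
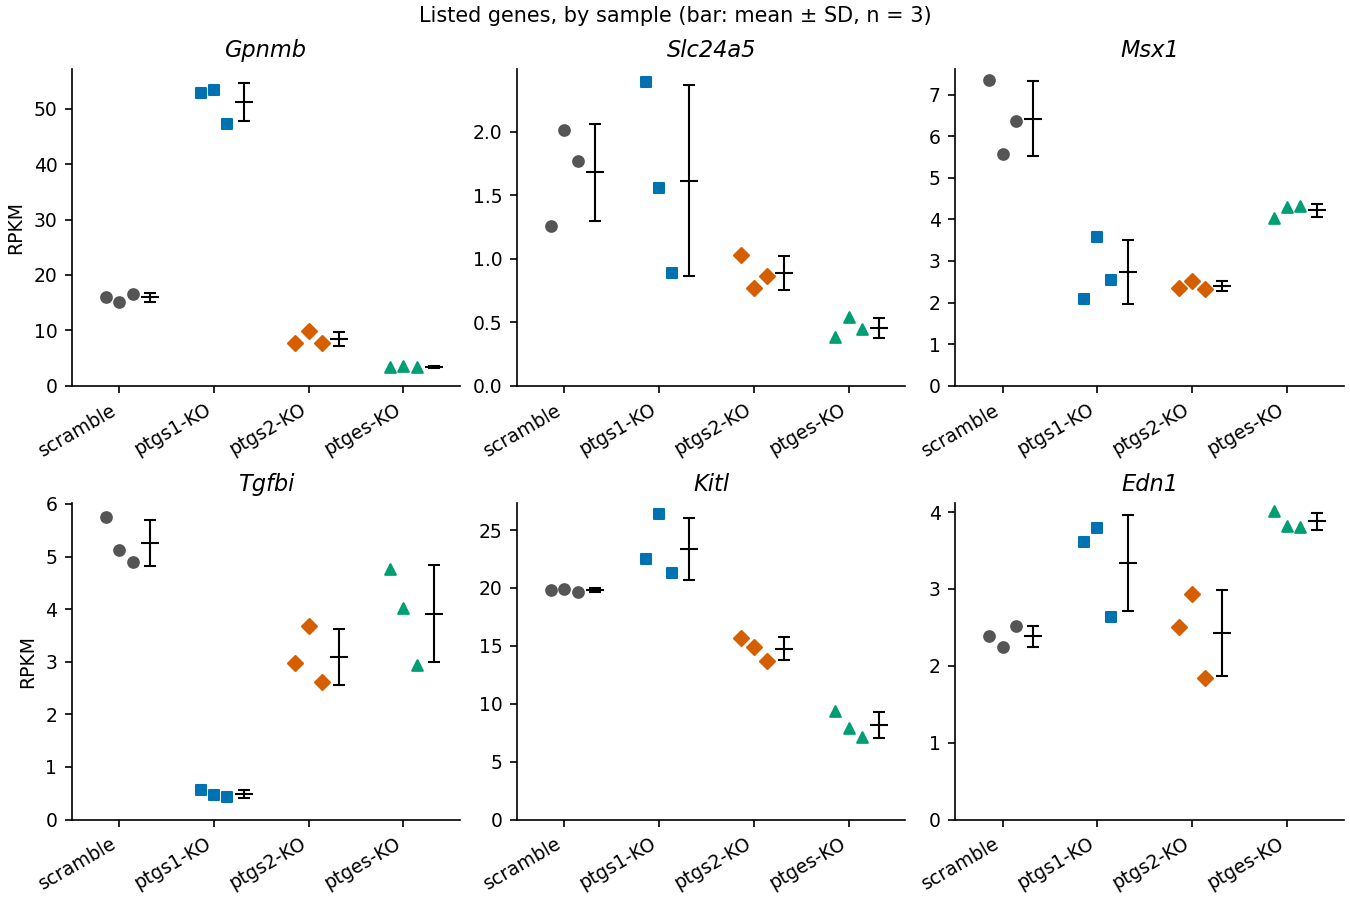
RPKM of 6 listed genes in each of the 12 samples (points), with the group mean and SD (n = 3), each panel on its own axis from 0. *Gpnmb* separates all 4 lines, with *ptgs1*-KO samples highest (47.2 to 53.4) and *ptges*-KO samples lowest (3.33 to 3.61), while *Kitl* and *Slc24a5* are lowest in *ptges*-KO cells.

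Among 20 other genes of the melanosome and of pigmentation, 6 were listed at 0 in all samples, namely *Gpr143*, *Oca2*, *Slc45a2*, *Tspan10*, *Slc24a4*, and *Asip*, and 7 were tested. In *ptgs1*-KO cells 1 rose and 0 fell, in *ptgs2*-KO cells 0 rose and 1 fell, and in *ptges*-KO cells 0 rose and 3 fell. Over all genes the shares that rose were 4.65%, 5.97%, and 11.9%, and those that fell were 4.61%, 5.17%, and 14.4% in these lines. The median differences of the list were -0.02, -0.33, and -0.43 on the log2 scale, beside the medians of all genes given above. *Pmel*, which forms the fibrils of the melanosome, was between 0.19 and 0.92 RPKM and was not tested.

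*Gpnmb*, a melanosome and lysosome glycoprotein, had the widest spread. It was 16.1, 15.1, and 16.6 RPKM in scramble cells, 52.9, 53.4, and 47.2 in *ptgs1*-KO cells, 7.64, 9.85, and 7.64 in *ptgs2*-KO cells, and 3.36, 3.61, and 3.33 in *ptges*-KO cells. It rose by 1.62 on the log2 scale in *ptgs1*-KO cells (SE 0.10, limma adjusted p = 2.65e-07). It fell by 0.86 in *ptgs2*-KO cells (adjusted p = 1.48e-04) and by 1.93 in *ptges*-KO cells (adjusted p = 4.14e-08).

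*Slc24a5*, a cation exchanger needed for melanin formation, was 1.26, 2.01, and 1.77 RPKM in scramble cells and 0.38, 0.54, and 0.45 in *ptges*-KO cells. It fell by 0.87 on the log2 scale in *ptges*-KO cells (SE 0.19, limma adjusted p = 0.00457). The *ptgs1*-KO samples ranged from 0.89 to 2.39 and the *ptgs2*-KO samples from 0.77 to 1.03, and neither line passed the test (adjusted p = 0.873 and 0.107). *Hps4*, a subunit of a complex for the biogenesis of melanosomes and other lysosome-related organelles, fell by 0.43 in *ptges*-KO cells (adjusted p = 0.0223). That call was lost without scramble replicate 2 or 3 or *ptges*-KO replicate 2 (adjusted p up to 0.0841).

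Other transcription factors of the neural crest were also measured. *Pax3*, which acts with *Sox10* on *Mitf*, was between 4.55 and 8.45 RPKM in the 12 samples, and its differences from scramble were 0.32, -0.09, and 0.03 on the log2 scale in *ptgs1*-, *ptgs2*-, and *ptges*-KO cells (limma adjusted p = 0.172, 0.725, and 0.916). Of 16 such factors 7 were tested. In *ptgs1*-KO cells 2 rose and 2 fell, in *ptgs2*-KO cells 0 rose and 1 fell, and in *ptges*-KO cells 0 rose and 2 fell, with medians of 0.32, 0.03, and 0.03. Over all genes 4.65% rose and 4.61% fell in *ptgs1*-KO cells, 5.97% and 5.17% in *ptgs2*-KO cells, and 11.9% and 14.4% in *ptges*-KO cells.

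*Msx1*, a homeobox gene of the neural crest border, was 7.34, 5.56, and 6.37 RPKM in scramble cells, 2.08, 3.57, and 2.54 in *ptgs1*-KO cells, 2.34, 2.53, and 2.32 in *ptgs2*-KO cells, and 4.03, 4.29, and 4.32 in *ptges*-KO cells. All knockout samples were below the scramble samples. It fell by 1.01 on the log2 scale in *ptgs1*-KO cells (limma adjusted p = 4.69e-04), by 1.12 in *ptgs2*-KO cells (adjusted p = 2.34e-04), and by 0.50 in *ptges*-KO cells (adjusted p = 0.0191). The last call was lost without scramble replicate 1 or 3 or *ptges*-KO replicate 1 or 2 (adjusted p up to 0.0802). *Tfap2b*, an AP-2 factor of the neural crest, fell by 0.80 in *ptges*-KO cells (adjusted p = 0.00146) and by 0.56 in *ptgs1*-KO cells (adjusted p = 0.0258). Its call in *ptgs1*-KO cells was lost without scramble or *ptgs1*-KO replicate 1 or 2 and without the filter (adjusted p up to 0.0956). *Snai2*, a repressor used in neural crest migration, rose by 0.76 in *ptgs1*-KO cells (adjusted p = 0.00106), from 9.72 ± 0.924 to 17.2 ± 2.10 RPKM (SD, n = 3).

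Of the close relatives of *Mitf* in the MiT family, *Tfe3* was expressed at a mean of 22.7 RPKM and *Tfeb* at 3.84, both above the mean of 2.30 of *Mitf*, while *Tfec* was listed at 0. Of the 2 tested, 0 were called against scramble in any line, with medians of 0.12, -0.08, and -0.02 on the log2 scale. The shares of all genes that rose were 4.65%, 5.97%, and 11.9%, and 4.61%, 5.17%, and 14.4% fell. With 2 genes tested, the lack of calls is therefore not particular to this family.

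Genes of the dedifferentiated, mesenchymal-like state had the highest summed level of the lists. They summed to 1743 to 2473 RPKM per sample, against 80.8 to 151.0 RPKM for the list of pigmentation genes. Much of this sum came from a few genes, with means of 912 RPKM for *Axl*, 311 for *Cyr61*, 217 for *Jun*, and 189 for *Fosl1*, and 4 of the 20 had a mean under 1. All 20 of that list were above 0 in at least 1 sample, and 16 were tested. *Axl*, the receptor tyrosine kinase that marks this state, had means of 988 ± 74.4, 1091 ± 131, 792 ± 58.7, and 776 ± 137 RPKM (SD, n = 3) in scramble, *ptgs1*-, *ptgs2*-, and *ptges*-KO cells. It did not differ from scramble past the threshold in any of the 3 lines (0.14, -0.32, and -0.36 on the log2 scale, limma adjusted p = 0.559, 0.126, and 0.0522). The knockout lines did differ from each other in *Axl*. Its difference from *ptgs1*-KO cells was -0.46 in *ptgs2*-KO cells (adjusted p = 0.0190), where 23.6% of all genes were called. In *ptges*-KO cells that difference was -0.50 (adjusted p = 0.0100), where 30.2% were called. Between *ptges*-KO and *ptgs2*-KO cells it was -0.04 (adjusted p = 0.859).

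The ratio of *Axl* to *Mitf*, both per length of transcript, was 296 to 962 over the 12 samples, with a median of 363. Its medians were 387, 450, 318, and 339 in scramble, *ptgs1*-, *ptgs2*-, and *ptges*-KO cells, and the ranges of all 4 lines overlapped. The highest ratio was that of *ptges*-KO replicate 1, the sample with the lowest *Mitf*. Over the 12 samples the mean of *Axl* was at percentile 99.6 of all genes in the table, that of *Mitf* at 66.2, and that of *Sox9* at 65.6, and *Sox10* and *Ngfr* were at or near 0. No pigmented line was among the samples, so these levels have no reference within the series.

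Within the dedifferentiated list 2 genes rose and 1 fell in *ptgs1*-KO cells, 2 rose and 3 fell in *ptgs2*-KO cells, and 1 rose and 5 fell in *ptges*-KO cells, with medians of 0.10, -0.11, and -0.16 on the log2 scale. Over all genes 4.65%, 5.97%, and 11.9% rose and 4.61%, 5.17%, and 14.4% fell in these lines. *Tgfbi*, a matrix protein induced by TGF-β, fell by 2.08 in *ptgs1*-KO cells (SE 0.15, limma adjusted p = 7.40e-07), from 5.26 ± 0.444 to 0.480 ± 0.0721 RPKM. It fell by 0.62 in *ptgs2*-KO cells (adjusted p = 0.0165), a call lost without scramble replicate 1 or *ptgs2*-KO replicate 1 or 3 (adjusted p up to 0.0701). *Pdgfrb*, a growth factor receptor of mesenchymal cells, fell by 1.00 in *ptges*-KO cells (adjusted p = 0.00450) and by 0.75 in *ptgs2*-KO cells (adjusted p = 0.0399). The latter was lost without scramble replicate 1 or 3, *ptgs1*-KO replicate 2, *ptges*-KO replicate 2, or any *ptgs2*-KO sample, and without the filter (adjusted p up to 0.144).

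The cells were checked against their label of melanoma. Of 7 melanocyte markers, 4 were listed at 0 in all samples and 1, *Mitf*, had a mean of at least 1. *Mitf* was 0.97 to 3.35 RPKM, *Tyr* 0.29 to 1.29, and *Pmel* 0.19 to 0.92. Markers of other cells were also low, although the fibroblast sum was above the highest value of any melanocyte marker in every sample. The summed RPKM of 6 fibroblast markers was 3.78 to 12.5, with *Dcn*, *Lum*, and *Postn* at 0, and most of it was *Pdgfra*, which fell by 0.93 in *ptgs2*-KO cells (limma adjusted p = 6.60e-05) and by 0.52 in *ptges*-KO cells (adjusted p = 0.00270). By line the sum was 8.34 to 8.89 in scramble, 10.8 to 12.5 in *ptgs1*-KO, 3.78 to 4.98 in *ptgs2*-KO, and 5.03 to 6.01 in *ptges*-KO cells. The sums of 6 markers each were 1.58 to 2.66 for Schwann cells and glia, 0.55 to 1.63 for keratinocytes, 0.66 to 2.14 for leukocytes, and 0.07 to 0.44 for endothelial cells. Their part in the differences of *Sox9* and *Tyr* was not tested.

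Across the 12 samples the genes tested whose RPKM followed *Sox9* most closely were *Ndp* (Pearson r = 0.936), which encodes the Wnt pathway ligand norrin, *Rgnef* (r = 0.932), a guanine nucleotide exchange factor, and *Ecm1* (r = 0.920), an extracellular matrix protein. *Ndp* had means of 7.20, 0.200, 4.97, and 0.173 RPKM in scramble, *ptgs1*-, *ptgs2*-, and *ptges*-KO cells. For *Mitf* the closest were *Zfp408* (r = 0.877), *Fam126b* (r = 0.821), and *AK215772* (r = 0.803). With *Sox9* 7 genes had an r of at least 0.9, and with *Mitf* 0 did. *Mitf* and *Sox9* had an r of 0.282 with each other. These values are descriptions over samples that share 4 lines, and no test was made of them.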

How the data were processed

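The authors sequenced mRNA libraries of the 12 samples as 101 bp paired-end reads and deposited 1 table of RPKM values with 2 decimals, named RPKM in the paper's figure legend and normalized counts in its methods. Per the labels the build was mm10. The aligner and annotation are not given in the sources used here, and the sums of 878504 to 903881 per sample also fit a fixed-total scaling. Members and gene lists were chosen with earlier results of these data known.

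From these values, genes with a mean of at least 1 over the 12 samples (11282) were tested as log2(RPKM + 1), with a pseudocount of 1, in limma 3.58.1 (R 4.3.3; lmFit, eBayes with trend), with 1 term per group, 2-sided, and a Benjamini-Hochberg adjusted p under 0.05 as the threshold. *Tyr* was tested in the fit without a filter (18623 genes). Samples were grouped by their labels, and no column was left out. Python 3.11.15 and matplotlib 3.10.9 made the figures.

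All 10 members were named, with the 3 listed genes of the largest difference among those called in each list, 6 genes of the members' pathways, and the 3 genes most correlated with each tested member. *Rab38*, *Egfr*, *Cyr61*, *Jun*, and *Fosl1* were chosen after their values were seen. Some genes that this rule names are not reported here. Depth was estimated at 13.4 to 17.0 M reads per sample from the steps of low values in transcripts of 500 to 1500 bases (GENCODE M21), with *ptgs1*-KO replicate 1 the least certain. Both steps were tested on simulated data. Alternatives were a pseudocount of 0.1, no filter, a filter by any group, median-ratio and quantile scaling, the replicate block, no trend, only the groups compared, a log2 limit of 1, and each of the 12 samples left out in turn. Those of *Tyr*, and the replicate block in the *ptgs2*-KO and *ptges*-KO samples alone, were added after the values were seen. The labels do not say that replicate numbers mark a shared batch. Deviations from the group means correlated above 0.1 in all 3 same-numbered pairs of *ptgs2*-KO with *ptges*-KO samples (0.11 to 0.57) and in 2 of the 15 pairs of the other lines.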

Additional observations from a re-analysis of the deposited data

Results flagged for a closer look

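A listed gene moved in opposite directions against scramble in different knockout lines, and the lines differed when compared directly. *Gpnmb* was higher than scramble in *ptgs1*-KO cells and lower in the others, with a limma difference of -2.48 on the log2 scale between *ptgs2*-KO and *ptgs1*-KO cells (SE 0.10, adjusted p = 2.25e-09) and of -3.55 between *ptges*-KO and *ptgs1*-KO cells (SE 0.10, adjusted p = 7.19e-11). Of the 2 members tested, *Sox9* was called lower in *ptgs1*-KO and *ptges*-KO cells and *Mitf* was called in no line. The other members were not in this fit, so they could not be called in opposite directions. With 3 samples per group, single samples were not tested as outliers.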

How the results depend on the processing

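*Sox9* kept its call in *ptgs1*-KO and in *ptges*-KO cells in all 20 alternatives to the test, with log2 differences of -0.97 to -0.63 and of -0.83 to -0.43, and *Mitf* was called in none of its comparisons. The number of members called fell to 0 in *ptgs1*-KO cells, in *ptges*-KO cells, and between *ptgs2*-KO and *ptgs1*-KO cells with a log2 limit of 1, and in the last also with only the 2 groups in the model. It rose to 2 in *ptges*-KO cells and over the 4 groups without the filter, which admits *Tyr*. Through *Sox9* it rose to 1 in *ptgs2*-KO cells without the trend (adjusted p = 0.0468) and to 1 between *ptges*-KO and *ptgs2*-KO cells without the filter (adjusted p = 0.0395) and without the trend (adjusted p = 0.0169). With 1 sample left out in turn, the number between *ptgs2*-KO and *ptgs1*-KO cells was 0 to 1. *Tyr* was called in *ptges*-KO cells in 16 of 18 alternatives (-1.09 to -0.36). Except for the gain or loss of a filtered gene the cause was not tested. Of 18 calls of the listed genes named against scramble, 12 held in all 20 alternatives.

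Deviations from the group means of same-numbered samples correlated above 0.1 in 5 of 18 pairs (-0.34 to 0.57), 3 of them being all the pairs of *ptgs2*-KO with *ptges*-KO samples, and 5 of 12 samples correlated best with a sample of their own number. No label says that samples of any pair of lines share more than a number. Even there, *ptgs2*-KO replicate 2 correlated more with *ptges*-KO replicate 3 (0.32) than with replicate 2 (0.11). The mean correlation was 0.012 for same-numbered pairs and -0.005 for the other pairs. Between *ptges*-KO and *ptgs2*-KO cells *Sox9* had an adjusted p of 0.0835 with the replicate block and of 0.0561 with the block and only these lines in the model, and 0 members were called. With the replicate block 1 member was called in *ptgs1*-KO cells, 1 in *ptges*-KO cells, and 0 in *ptgs2*-KO cells, with *Sox9* at adjusted p = 0.00364 and 0.00392 in the first pair of lines, and no member's call changed. All genes called rose from 1045 to 1105 in *ptgs1*-KO, from 1257 to 1365 in *ptgs2*-KO, and from 2969 to 3099 in *ptges*-KO cells. Low depth limits *Tyr*, *Ednrb*, *Ngfr*, and the members listed at 0.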

Other observations

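Among the listed genes, 2 with a mean under 1 RPKM did not overlap between some of the lines and were chosen after their values were seen. *Rab38*, a small GTPase that carries pigment enzymes to the melanosome, was listed at 0 in all 3 *ptgs1*-KO samples. It was 0.57, 0.36, and 0.16 RPKM in scramble cells, 1.65, 1.13, and 1.45 in *ptgs2*-KO cells, and 1.19, 1.57, and 1.47 in *ptges*-KO cells, so *ptgs2*-KO and *ptges*-KO samples overlapped with each other and lay above both other lines. *Egfr*, a growth factor receptor of the dedifferentiated list, was 1.24, 0.98, and 1.10 RPKM in *ptges*-KO cells. It was 0.12, 0.07, and 0.23 in scramble cells, 0.29, 0.23, and 0.15 in *ptgs2*-KO cells, and 0.00, 0.00, and 0.02 in *ptgs1*-KO cells, so the *ptges*-KO samples lay above all others and the *ptgs1*-KO samples below all others. Neither reached the minimum mean for testing, with means over the 12 samples of 0.796 RPKM for *Rab38* and 0.369 for *Egfr*. Unlike for *Tyr*, whose mean was also under the minimum, their differences in the fit without a filter are not given here.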
